A study of Homo sapiens with 6 samples.

Results

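Dexamethasone-induced binding of the glucocorticoid receptor (GR) was compared between a human cell line that has GR, named the GR cell, and a line in which the mineralocorticoid receptor (MR) is expressed together with GR, named the MR/GR cell. The regions compared are all peaks in the 3 dexamethasone lists of each line, 115585 of the 116356 peaks of the series, from 6 of its 12 peak lists and 2 of its 6 samples. Both stable lines were made for the study from U-2OS, a human osteosarcoma line. In both groups the cells received dexamethasone at 100 nM for 2 hr before ChIP-seq with an antibody against GR. The vehicle groups of both lines (DMSO) served here only to mark sites that also had a peak without ligand. Each receptor combination was represented by 1 line, so MR and any other difference between the lines cannot be told apart. The antibody was against GR, and binding of MR itself was not measured. The lists give positions (hg19) without heights or scores, and the read depth behind them is unknown. Whether the 3 lists of a line stand for separate cultures is not in the labels. A p-value therefore reflects the spread between lists only, and this spread may be technical.

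GR and MR are closely related nuclear receptors. On binding hormone they move to the nucleus and can recognise the same DNA element, an imperfect palindrome of hexamers with a spacer of a few bases, the glucocorticoid response element. Dexamethasone is a synthetic glucocorticoid that is used as a strong GR agonist and also binds MR. GR binds mostly at enhancers that are already accessible, often beside factors such as AP-1. A large part of its action is to switch on inhibitors of inflammation and of its own signalling, while MR is best known for sodium transport in the kidney.

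Sites at the promoters of 3 target genes are shown first, since they were in all 3, in 2 and in 1 of the MR/GR-cell lists. Among the target genes examined, the 3 shown here had a GR-cell site centred within 500 bp of the gene start, and they were chosen after these values were seen. MT2A encodes a metal-binding metallothionein, CXCL8 a chemokine that glucocorticoids repress, and BHLHE40 a transcription factor of the circadian clock. The site at MT2A (chr16:56642015-56642438 in hg19) was in all 6 lists. At CXCL8 the site (chr4:74606109-74606557) was in all 3 GR-cell lists and in MR/GR lists 2 and 3. At BHLHE40 it was in all 3 GR-cell lists and in MR/GR list 2 alone (chr3:5020504-5021011). The sequences are the 250 bases before each gene start on the plus strand, from RefSeq in build GRCh38.p14 (chr16:56608334-56608583, chr4:73740319-73740568 and chr3:4979187-4979436), since a genome of the build of the peak lists was not used here. Capitals mark the motifs searched on both strands, the AP-1 site TGACTCA in MT2A and CXCL8 and the E-box CACGTG in BHLHE40.
MT2A: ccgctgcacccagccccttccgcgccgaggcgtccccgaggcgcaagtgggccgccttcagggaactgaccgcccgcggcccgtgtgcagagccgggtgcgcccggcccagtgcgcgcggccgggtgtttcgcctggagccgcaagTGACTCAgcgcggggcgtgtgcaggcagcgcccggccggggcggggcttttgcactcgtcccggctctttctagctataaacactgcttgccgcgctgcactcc
CXCL8: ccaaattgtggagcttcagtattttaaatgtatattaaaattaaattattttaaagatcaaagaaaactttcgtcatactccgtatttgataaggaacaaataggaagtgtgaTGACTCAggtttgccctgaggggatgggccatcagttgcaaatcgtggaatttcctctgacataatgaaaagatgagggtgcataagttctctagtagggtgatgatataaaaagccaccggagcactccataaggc
BHLHE40: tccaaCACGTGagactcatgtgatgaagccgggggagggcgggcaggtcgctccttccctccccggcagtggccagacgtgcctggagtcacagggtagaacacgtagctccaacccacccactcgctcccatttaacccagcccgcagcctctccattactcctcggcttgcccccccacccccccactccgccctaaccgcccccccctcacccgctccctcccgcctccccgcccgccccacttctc
In promoter stretches of this length TGACTCA occurred in 4.20% of 35116, CACGTG in 6.34% and the receptor core ACANNNTGT in 4.61%. None of the 3 stretches held ACANNNTGT, which describes these letters in this window only. How far the stretches overlap the peaks was not determined, so their motifs are not a description of the bound sequences.

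The number of peaks per list set the frame for every comparison. The GR-cell lists held 37650, 30912 and 26191 peaks and the MR/GR-cell lists held 3713, 10459 and 6660. Every MR/GR-cell list was shorter than every GR-cell list (log2 difference -2.29, SE 0.46, two-sided exact permutation p = 0.1, the smallest that 3 lists against 3 allow). Overlapping peaks of the 6 lists were merged into 43713 sites, and a line was taken to hold a site that was in 2 or 3 of its own lists. A GR-cell site was called kept when the MR/GR cell also held it, partly kept when 1 MR/GR-cell list had it, and lost when no MR/GR-cell list had it. A site held by the MR/GR cell and in no GR-cell list was called new. These are names for list membership: a peak that is not listed may lie under the calling threshold.

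Of 30365 GR-cell sites, 5425 were kept (17.9%), 3173 were partly kept (10.4%, Wilson 95% interval 10.1 to 10.8) and 21767 were lost (71.7%, 71.2 to 72.2). New sites numbered 334, or 5.6% of the 5965 sites that the MR/GR cell held. A further 206 of its sites were in 1 GR-cell list (3.45%). Intervals here and below cover counting error over sites only. Kept sites were the firmest of the GR cell: 95.2% of them were in all 3 GR-cell lists, against 85.5% of partly kept and 69.2% of lost sites. In the other line kept sites were less even, with 62.3% in MR/GR list 1, 98.6% in list 2 and 96.4% in list 3, and 55.6% were in all 6 lists. The partly kept class came largely from 1 list, since 74.6% of it was in MR/GR list 2 only, the longest, 22.9% in list 3 only and 2.49% in list 1 only. Without MR/GR list 2 the kept count was 3187 and the new count 72, and without list 3 they were 3307 and 95.

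**Figure D1:**
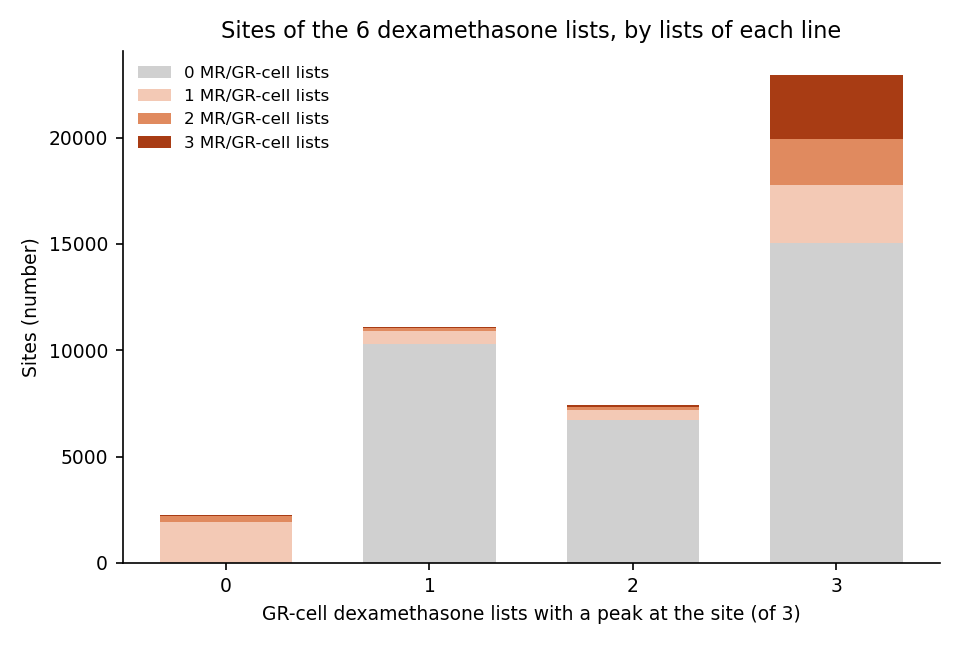
Number of merged sites (bar height) by how many of the 3 GR-cell lists had a peak there (horizontal axis) and how many of the 3 MR/GR-cell lists (colour), after dexamethasone. The most filled group, 3 GR-cell lists without any MR/GR-cell list, has 15056 sites, 3017 sites were in all 6 lists, and 63 were in 3 MR/GR-cell lists alone.

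Seen from the lists, the shortest was almost a subset of the kept sites. Kept sites made up 91.1% of MR/GR list 1, 78.5% of list 3 and 51.2% of list 2. Sites in no other list made up 1.67% of MR/GR list 1 and 2.22% of list 3, but 16.4% of list 2. The same was seen in the GR cell, where the longest list had 19.2% of its sites to itself and the other lists 7.35% and 3.12%. Within each line, the longest list therefore held the most sites that no other list repeated. At kept sites the mean peak centres of the lines were close, with a median distance of 19.3 bp and a 95th percentile of 72 bp, and 31 of 5425 were over 150 bp apart.

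How precisely the GR-cell lists agreed on a site was related to whether the MR/GR cell held it. For the 22935 sites found in all 3 GR-cell lists, the range of the 3 GR-cell peak centres was taken, a measure that uses no MR/GR-cell peak. Its median was 51 bp at sites in no MR/GR-cell list, 43 bp at sites in 1, 38 bp at sites in 2 and 32 bp at sites in all 3. Read the other way, 34.1% of the 3888 sites with centres within 20 bp were kept, 28.4% of those from 21 to 40 bp, 19.4% of those from 41 to 80 bp and 10.8% of the 4775 sites above 80 bp. Against the 22.5% kept over all sites in 3 GR-cell lists, sites with tight centres were above and sites with wide centres below. Each MR/GR-cell list alone had this order, from 24.8% to 5.696% held in list 1, from 42.0% to 18.7% in list 2 and from 37.1% to 11.9% in list 3. Peak height is not in the lists, and its part in this order was not tested. This relation was looked for after the data were seen.

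Sites with other GR-cell sites close by were kept more often than isolated ones. Among sites in all 3 GR-cell lists, the kept share was 20.6% for the 15851 with no other GR-cell site within 10 kb. It was 25.6% with 1 neighbour (n = 5800), 30.7% with 2 (n = 1101) and 40.98% with 3 or more (n = 183, interval 34.1 to 48.2). Each MR/GR-cell list followed this order, from 12.9% to 27.9% held in list 1, from 28.5% to 52.5% in list 2 and from 22.6% to 42.1% in list 3. Sites in 2 GR-cell lists had the same order at a far lower level, with 2.80%, 4.43%, 7.35% and 14.3% kept, the last from 6 of 42 sites. Neighbouring sites are not independent of one another, so no test was made.

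**Figure D2:**
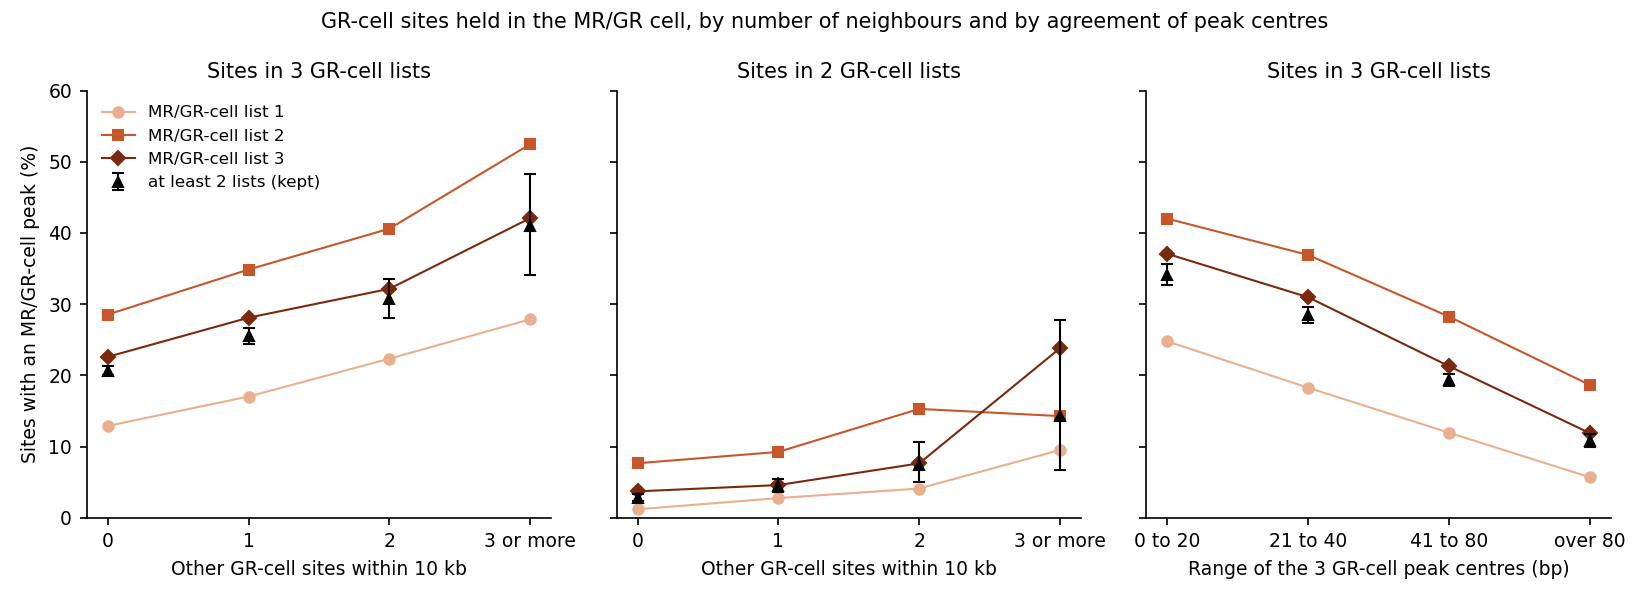
Percent of GR-cell sites that each MR/GR-cell list held (joined points) and percent kept (triangles, with Wilson 95% intervals), by number of other GR-cell sites within 10 kb for sites in 3 GR-cell lists and in 2, and by the range of the 3 GR-cell peak centres in bp. Held shares are higher with more neighbours and lower with wider centre ranges, with 1 exception, MR/GR list 2 in the middle panel, where the last 2 groups stand at 15.3% and 14.3%.

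Counting clusters in place of single sites gave a higher share still held somewhere. GR-cell sites at most 10 kb from the next were joined, which gave 21095 single sites and 766 clusters of 3 or more. At least 1 site was kept in 16.2% of single sites, 33.0% of pairs, 50.9% of clusters of 3, 60.3% of clusters of 4 and 80.4% of the 56 clusters of 5 or more. A cluster with more sites has more chances to hold a kept one, and over the single sites in it the share was lower, 33.8% in clusters of 5 or more. For clusters of 3 or more, 54.6% had a kept site with all lists. Without MR/GR list 2 this was 40.1%, and without GR-cell list 1 it was 63.1%.

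Dense clusters of the GR cell were found both with nearly all sites kept and with none. The cluster with most kept sites lay at chr11:114020727-114050343, in the locus of ZBTB16, a zinc-finger factor of the BTB family, where 6 of 7 sites were kept. It held 7, 7 and 6 peaks in the GR-cell lists and 6 in each MR/GR-cell list. Next came chr6:35678145-35700042 at FKBP5, with 5 of 6 kept (6, 6 and 5 peaks against 5 in each list), and chr20:49032119-49068031, also with 5 of 6 kept (6, 5 and 6 against 5, 7 and 5). Elsewhere dense groups had no MR/GR-cell peak at all. At chr2:19007800-19025427 and at chr7:106344663-106374906 each GR-cell list had 5 peaks and each MR/GR-cell list none. At chr11:69835299-69857501 the GR-cell lists had 5, 4 and 5 peaks and the MR/GR-cell lists none. They were 3 of 9 clusters of 5 sites in which all were lost, taken in chromosome order. These 9 made up 16.1% of the 56 clusters of 5 or more sites, while 73.9% of single sites were lost. The shares are unlike measures, since a cluster counts here only when every site in it was lost.

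Known target genes of glucocorticoids were then examined, 49 loci in 8 roles, each a gene with 50 kb on either side. Gene positions in hg19 were entered by hand from general knowledge, and a site in such a window is not thereby a regulator of that gene. The windows held 256 sites, of which 193 were GR-cell sites. Of these, 82 were kept (42.5%, interval 35.7 to 49.5), 28 partly kept and 83 lost (43.0%), beside 17.9% kept and 71.7% lost over the genome. Among sites in all 3 GR-cell lists, 79 of 156 were kept (50.6%), against 22.5% of all such sites. At every number of neighbours the loci stood above the genome, with 39.2%, 57.8%, 53.8% and 90.9% kept for 0, 1, 2 and 3 or more, the last from 10 of 11 sites. Most of these 11 sites lie in the ZBTB16 and FKBP5 clusters named above, so that share rests on few loci. By centre range, 26 of 37 locus sites within 20 bp were kept, 33 of 50 from 21 to 40 bp, 16 of 46 from 41 to 80 bp and 4 of 23 above it. The loci were chosen with earlier results of these data known, so these shares are descriptions without a test.

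The share of a list's peaks that lay at these loci was higher in the MR/GR cell. It was 0.600%, 0.628% and 0.657% of the peaks in the GR-cell lists and 1.89%, 1.20% and 1.31% in the MR/GR-cell lists, a ratio of means of 2.33. In both lines the share was higher the shorter the list, with 1.89% in the list of 3713 peaks and 0.600% in the list of 37650. The part of list length in the ratio was not tested.

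Of the 49 loci, 44 had a GR-cell site. At least 1 site was kept at 34 of them, against 27.7% of the windows of 120 kb over the genome with a GR-cell site, and all sites were lost at 8, against 59.6%. At 28 loci there were at least 3 GR-cell sites, and 27 of these are described one by one. At least 1 kept site was found at 25 of them (89.3%), against 52.5% of the 4033 windows with at least 3 GR-cell sites. The loci differ in length and hold up to 18 GR-cell sites, so this background is not matched to them in length or site number, and more sites give more chances of a kept one. All sites were lost at 3 (NR3C1, TNIP1 and PCK1), where the background was 31.9%. The number of peaks was lower in every MR/GR-cell list than in every GR-cell list at 22 of the 28 (78.6%), near the background of 83.1%. As a share of the list, however, 18 loci were higher in every MR/GR-cell list (64.3%, background 21.2%) and 2 were lower (7.14%, background 33.5%). The log2 difference in peaks + 1 had a median of -0.86 over the 28 loci (-2.06 to -0.11) and of -1.53 over the windows (quartiles -1.90 to -1). Adding 1 shrinks differences between small counts: at NR3C1, 3 peaks in each GR-cell list against none gave -2. Values at loci, here and below, are therefore not comparable with the -2.29 of whole lists.

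**Figure D3:**
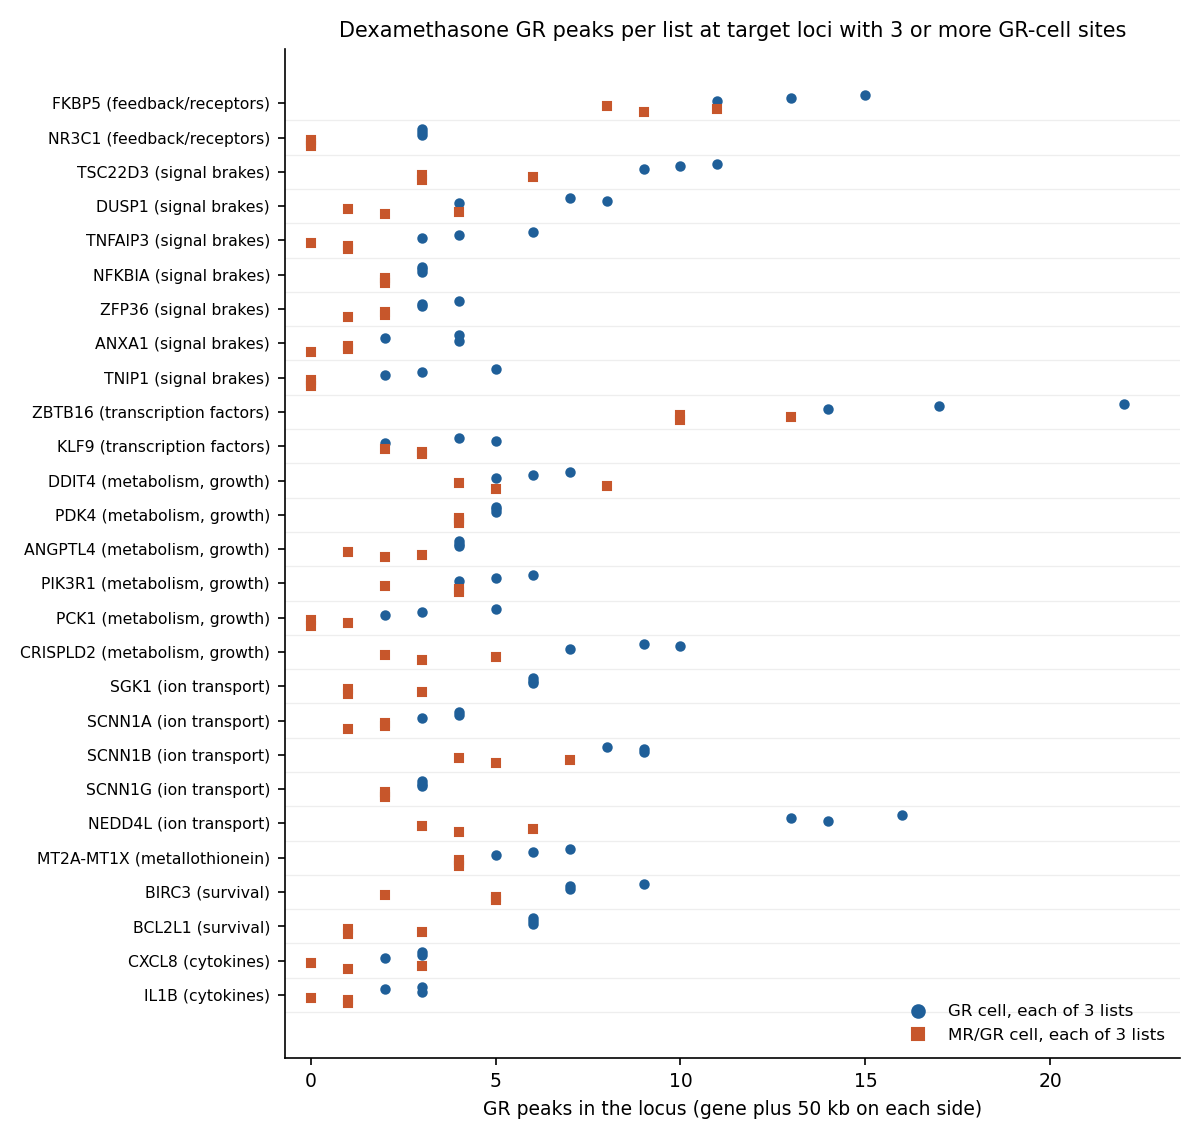
GR peaks per list at 27 of the 28 loci with at least 3 GR-cell sites, grouped by role, with 1 point for each of the 3 GR-cell (circles) and 3 MR/GR-cell lists (squares). FKBP5 and ZBTB16 keep the most peaks in the MR/GR cell, and NR3C1 and TNIP1 have none there.

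Among feedback genes and receptors, FKBP5 kept most of its GR-cell sites and NR3C1 kept none. FKBP5 encodes a co-chaperone that lowers the hormone affinity of GR and closes a negative feedback loop. Its locus held 15, 13 and 11 peaks in the GR-cell lists and 8, 11 and 9 in the MR/GR-cell lists, so the groups met at 11 (log2 difference -0.44, SE 0.17, two-sided exact permutation p = 0.2). With 100 kb on each side it was -0.76. Of 13 GR-cell sites there, 9 were kept, 8 of them in all 6 lists, and 4 were lost, 2 of which were in only 2 GR-cell lists. Kept sites formed a group at chr6:35558346-35579126 and another at chr6:35683172-35700042. At NR3C1, the gene of GR itself, each GR-cell list had 3 peaks and each MR/GR-cell list none (log2 difference -2, exact permutation p = 0.1, two-sided). Its lost sites were chr5:142641325-142641825, chr5:142696813-142697340 and chr5:142810770-142811300, each in all 3 GR-cell lists. The gene of MR, NR3C2, had 2, 3 and 1 peaks in the GR cell and none in the MR/GR cell.

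The enzymes that switch cortisol on and off in the cell had few sites. HSD11B1, which makes cortisol from cortisone, had 1 peak in each GR-cell list and 0, 1 and 1 in the MR/GR-cell lists. Those MR/GR-cell peaks were not at the GR-cell site but at a new one, chr1:209862045-209862373. HSD11B2, which inactivates cortisol and so guards MR in the kidney, had 3, 2 and 2 peaks against 1, 2 and 1, with 1 of 2 sites kept.

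Brakes on inflammation and signalling kept 12 of 37 GR-cell sites (32.4%, interval 19.6 to 48.5). TSC22D3 encodes GILZ, an inhibitor of NF-kappa-B and AP-1. It had 11, 10 and 9 peaks against 3, 6 and 3, with no overlap (-1.19, SE 0.28, exact permutation p = 0.1, two-sided), and 4 of its 10 sites were kept. DUSP1, a phosphatase that turns off MAP kinases, had 7, 8 and 4 peaks against 1, 4 and 2, and the groups met at 4 (-1.19, SE 0.46, exact permutation p = 0.2, two-sided). With 20 kb on each side of the gene in place of 50 kb, the difference was -0.14. Of its 7 sites, chr5:172199337-172199760 was kept, in all 6 lists, and MR/GR lists 2 and 3 shared a new site at chr5:172216929-172217288. TNFAIP3, which encodes the ubiquitin editor A20, had 6, 4 and 3 peaks against 0, 1 and 1, and 1 of 4 sites was kept. Its partner gene TNIP1 had 5, 3 and 2 against none, with all 3 sites lost.

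NFKBIA and ERRFI1 were the brakes with the largest kept share of sites. NFKBIA, the inhibitor that holds NF-kappa-B in the cytoplasm, had 3 peaks in every GR-cell list and 2 in every MR/GR-cell list. Its kept sites, chr14:35860015-35860438 and chr14:35873034-35873457, were in all 6 lists. ZFP36, which destabilises cytokine messages, had 4, 3 and 3 peaks against 2, 2 and 1, with 1 of 3 sites kept. At ERRFI1, an inhibitor of the EGF receptor, there were 2 peaks in each of the 6 lists, and both sites were kept. ANXA1, the phospholipid-binding annexin A1, had 4, 2 and 4 peaks against 1, 1 and 0. IRAK3 had 1 peak in each GR-cell list, at a site that was lost, and a peak elsewhere in MR/GR list 2.

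Transcription factor and clock loci kept 16 of 31 sites (51.6%, interval 34.8 to 68.0), with ZBTB16 supplying 10 of them. ZBTB16 had 22, 17 and 14 peaks in the GR cell and 10, 13 and 10 in the MR/GR cell, with no overlap (-0.62, SE 0.21, exact permutation p = 0.1, two-sided). Of its 18 sites, 10 were kept, 8 of them in all 6 lists, 2 were partly kept and 6 were lost. KLF9, a Krueppel-like factor, kept all 3 of its sites, with 4, 5 and 2 peaks against 2, 3 and 3. CEBPB had 2 peaks in each GR-cell list and 1 in each MR/GR-cell list. The clock genes were thinner: PER1 had 2, 2 and 3 peaks against 1, 1 and 1, and PER2 had 2, 1 and 2 against none. A lost site there, chr2:239197309-239197798, was in all 3 GR-cell lists. BHLHE40, whose promoter is printed above, had 3, 2 and 2 peaks against 0, 3 and 0, all of the latter in the longest MR/GR-cell list.

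Metabolic genes kept 16 of 34 sites (47.1%). PDK4, a kinase that shuts pyruvate out of the citric acid cycle, had 5 peaks in every GR-cell list and 4 in every MR/GR-cell list. Its 4 kept sites, from chr7:95179454-95179877 to chr7:95258021-95258444, were in all 6 lists, and 1 site was lost. Among the loci with at least 3 GR-cell sites, the difference was smallest at DDIT4, an inhibitor of mTORC1. DDIT4 had 7, 6 and 5 peaks against 4, 8 and 5 (-0.11, SE 0.28, exact permutation p = 0.8, two-sided). None of its 6 sites was lost, and 4 were kept. Without MR/GR list 1 the sign turned, to 0.08. PIK3R1, a regulatory subunit of PI3-kinase, had 6, 5 and 4 peaks against 2, 4 and 4, with 3 of 5 kept and a new site at chr5:67557521-67557832. ANGPTL4, an inhibitor of lipoprotein lipase, had 4 peaks in each GR-cell list against 1, 3 and 2. At CRISPLD2, 9, 10 and 7 peaks stood against 2, 5 and 3, and 2 of 9 sites were kept. PCK1, the key enzyme of gluconeogenesis, had 5, 3 and 2 peaks against 0, 1 and 0, and none of its 4 sites was kept even in part. IGFBP1 had 1 peak in each of the 6 lists, and the TAT window had none in any.

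Ion transport genes, the classical targets of MR, kept 12 of 38 sites (31.6%, interval 19.1 to 47.5), a share close to that of the brakes. SGK1 encodes a kinase that keeps the epithelial sodium channel at the cell surface. It had 6 peaks in every GR-cell list and 1, 3 and 1 in the MR/GR cell, with no overlap (-1.47, SE 0.33, exact permutation p = 0.1, two-sided). Only chr6:134496944-134497369 was kept, in all 6 lists, 1 site was partly kept and 4 were lost. NEDD4L, the ubiquitin ligase that removes the sodium channel, had 16, 13 and 14 peaks against 3, 6 and 4 (-1.56, SE 0.25, exact permutation p = 0.1, two-sided), and 3 of 13 sites were kept. Genes of the channel itself were held more fully in these windows with 50 kb on each side. SCNN1B had 8, 9 and 9 peaks against 4, 7 and 5 with 5 of 9 sites kept, SCNN1G had 3 in each GR-cell list against 2 in each MR/GR-cell list, and SCNN1A had 4, 4 and 3 against 2, 2 and 1. The windows of SCNN1B and SCNN1G overlap, and the kept sites of SCNN1G are also kept sites of SCNN1B. With 100 kb on each side the difference was -1.73 at SCNN1A, -0.64 at SCNN1B and -0.58 at SCNN1G. It was then -1.83 at SGK1 and -1.34 at NEDD4L, so at SCNN1A the contrast depended on the window.

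**Figure D4:**
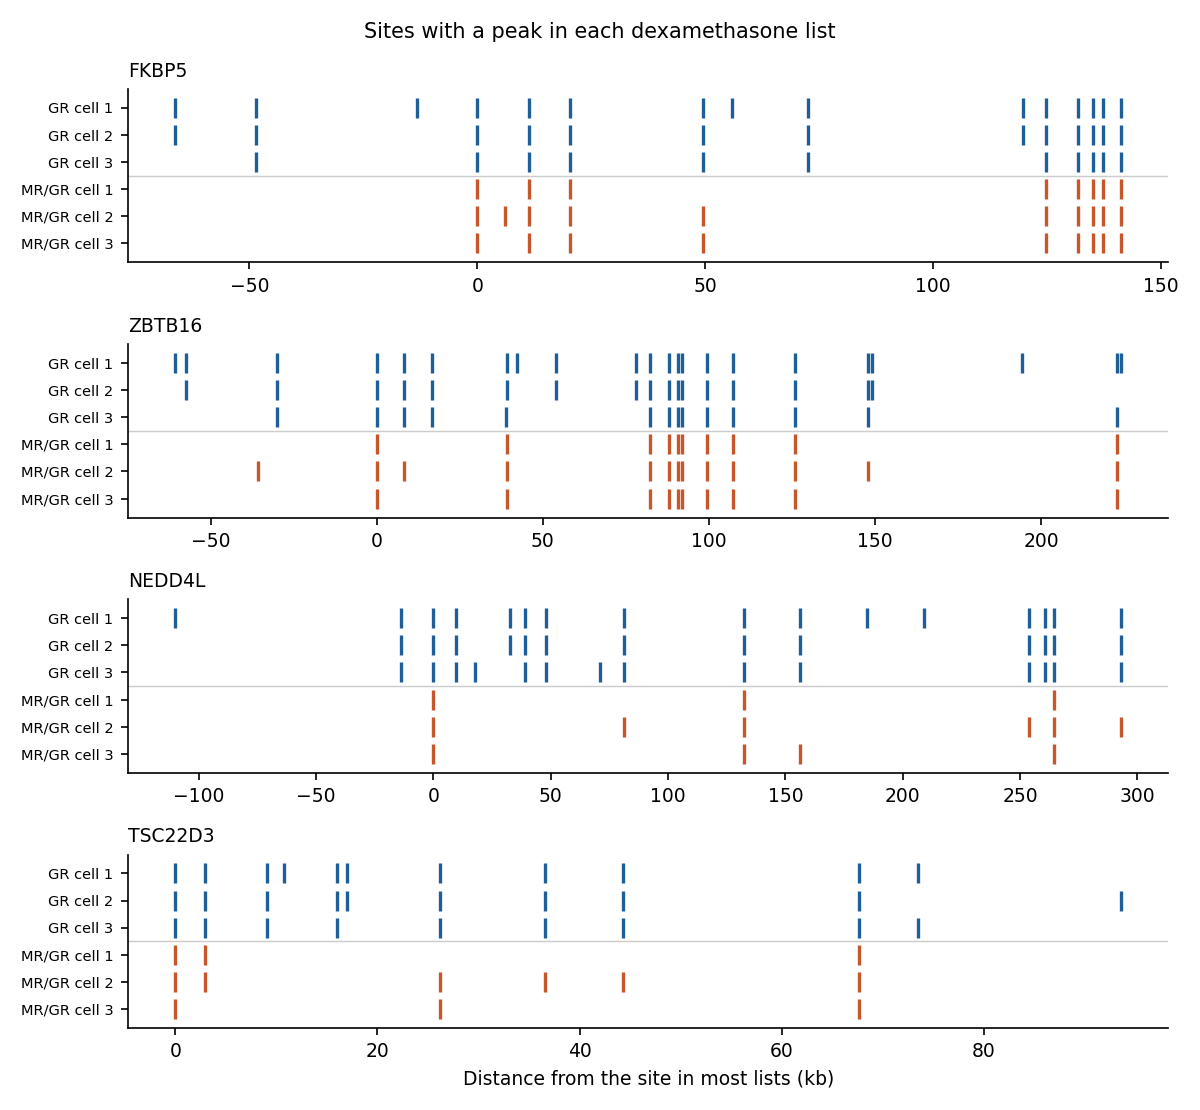
Peaks of the 6 dexamethasone lists at FKBP5, ZBTB16, NEDD4L and TSC22D3, as distance in kb from a site in all 6 lists, 1 row per list. At FKBP5 9 of 13 GR-cell sites and at ZBTB16 10 of 18 were kept, while at NEDD4L 3 of 13 were kept, 4 were partly kept and 6 were lost. Sites that the GR cell did not hold are drawn as well.

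The metallothionein cluster, from MT2A to MT1X, had 7, 6 and 5 peaks against 4 in each MR/GR-cell list (-0.48, SE 0.12, exact permutation p = 0.1, two-sided). Its 4 kept sites, among them the MT2A promoter site, were in all 6 lists, and 2 sites were lost. Cell cycle and survival genes kept 10 of 19 sites (52.6%). BIRC3, an inhibitor of apoptosis, had 9, 7 and 7 peaks against 2, 5 and 5, with 5 of 7 kept. BCL2L1, the anti-apoptotic BCL-X gene, had 6 peaks in each GR-cell list against 1, 3 and 1, with 1 of 6 kept. GADD45B, a stress gene, had 5, 3 and 2 peaks against 3, 4 and 3, and both GR-cell sites were kept. A further site there, chr19:2518235-2518591, was in all 3 MR/GR-cell lists and in GR-cell list 1. The cyclin-dependent kinase inhibitor genes CDKN1A (3, 2 and 2 peaks against 1, 1 and 1) and CDKN1C (3, 2 and 2 against 1, 2 and 1) each had 1 of 2 sites kept.

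At the inflammatory genes that glucocorticoids repress there were few sites, 7 in all, of which 2 were kept, and none of the 7 was in all 6 lists. CXCL8 had 3, 3 and 2 peaks against 0, 3 and 1, and its promoter site was the kept one. IL1B had 3, 2 and 3 peaks against 0, 1 and 1. IL6 had 1, 2 and 1 peaks against 0, 1 and 0. CCL2 and PTGS2 had 1 peak in GR-cell list 1 alone, and the IL11 window had none.

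New sites, which the MR/GR cell held and no GR-cell list had, were few and lay on all 23 chromosomes counted. MR/GR list 1 had 104 of the 334, list 2 had 325 and list 3 had 302, and 63 were in all 3. Their distance to the nearest GR-cell site had a median of 12.7 kb (quartiles 3.04 to 37.0). As many as 151 (45.2%) lay within 10 kb of one and 40 within 1 kb, while 31 were over 100 kb away. For comparison, another GR-cell site lay within 10 kb of 37.0% of kept, 34.2% of partly kept and 28.4% of lost sites. Chromosome 5 had the most new sites, 40. The windows of the 49 target loci held 3 new sites, those at HSD11B1, DUSP1 and PIK3R1, and none of the 63. Among the 63, chr2:39750836-39751152 was the closest to a GR-cell site, at 0.459 kb, and chr12:13723106-13723463 was 193 kb from one.

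Along the genome the reduction was uneven. In 299 windows of 10 Mb with at least 20 GR-cell peaks on average, the share of a list's peaks in the MR/GR cell relative to the GR cell ran from 0.122 to 2.02, with a median of 0.957 (quartiles 0.686 to 1.20). It was lower in every MR/GR-cell list than in every GR-cell list in 111 windows (37.1%) and higher in 90 (30.1%). No window passed the exact permutation test with Benjamini-Hochberg adjustment, whose smallest adjusted p was 0.149, and the unadjusted p cannot go below 0.1. Shares within a list sum to a fixed total, so windows are not independent.

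Windows with low ratios lay on many chromosomes, with 0.312 for the lowest on chromosome 13 and 0.322 on chromosome 4. The ratio was highest at 60 to 70 Mb of chromosome 15, with 0.425%, 0.405% and 0.382% of GR-cell peaks and 1.05%, 0.650% and 0.751% of MR/GR-cell peaks. Next came 40 to 50 Mb of chromosome 20 (ratio 1.97, 72 of 195 sites kept) and 70 to 80 Mb of chromosome 10 (1.93, 46 of 136 kept), which holds the DDIT4 locus. It was lowest of all at 110 to 120 Mb of chromosome X, with 49, 35 and 30 peaks in the GR cell and 0, 3 and 1 in the MR/GR cell, and 1 of 34 sites kept. Chromosome 19 from 20 to 30 Mb followed, with 50, 36 and 32 peaks against 1, 1 and 2. On chromosome X 15 of 16 windows were lower without overlap and none higher, so its low share was spread along its length. On chromosome 13 this held for 8 of 10 windows. TSC22D3 lies on chromosome X, where 9.05% of GR-cell sites were kept, and kept 4 of its 10.

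**Figure D5:**
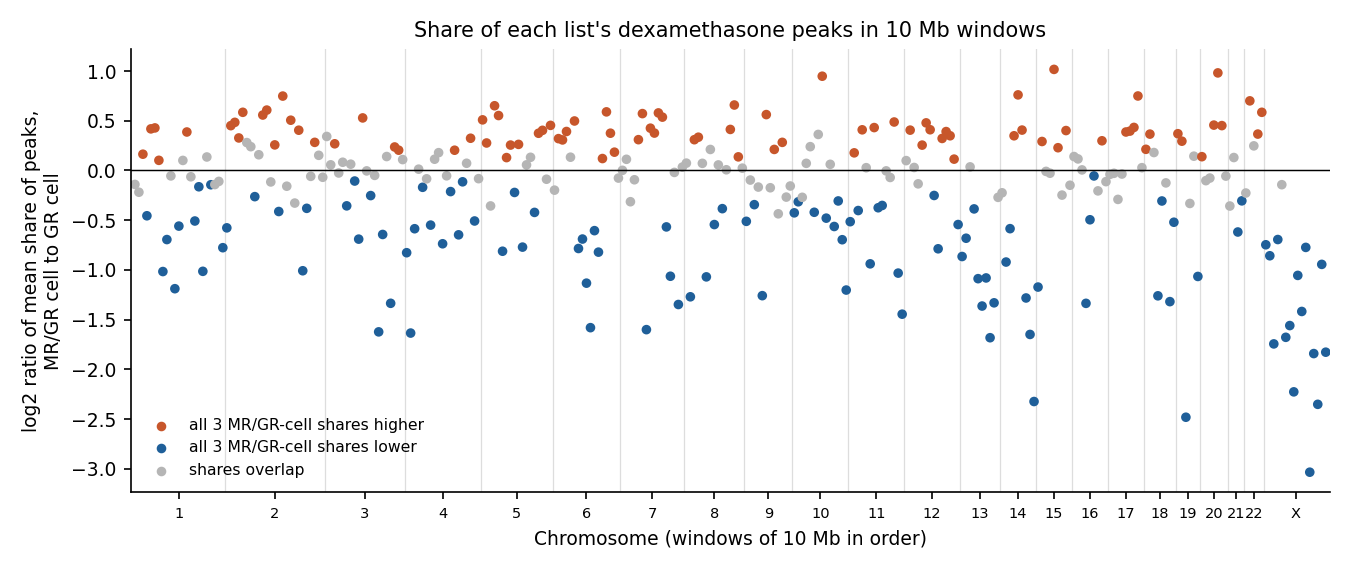
Ratio of the mean share of peaks in the MR/GR cell to that in the GR cell, as log2 on the vertical axis, for each of 299 windows of 10 Mb in genome order, with windows coloured where the 3 lists of one line do not overlap those of the other. All 16 windows of chromosome X lie below the line of equal shares, and the highest ratio is 2.02 on chromosome 15.

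The kept share of a window ran from 2.78% to 36.9%, with a median of 17.1%. Windows with more GR-cell sites kept a larger share (Spearman 0.47, Pearson 0.48 over 299 windows). This is a description, since both measures use the same GR-cell sites. Peaks within 5 Mb of the outermost peaks of a chromosome made up 10.6%, 10.98% and 10.8% of the GR-cell lists and 9.59%, 9.60% and 9.91% of the MR/GR-cell lists. The difference was -1.12 points (SE 0.14, two-sided exact permutation p = 0.1, the smallest possible), with no overlap between the lines. Within 2 Mb it was -0.67 points.

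Few sites of any class also had a peak without ligand. A peak in some vehicle list of the GR cell overlapped 39 kept sites (0.719%), 53 partly kept (1.67%), 136 lost (0.625%) and 4 new sites (1.20%). The share was highest in the partly kept class, with an interval of 1.28 to 2.18, beside 0.526 to 0.981 for kept and 0.528 to 0.739 for lost sites. The interval of new sites, 0.467 to 3.04, contained that of partly kept sites. No test between the classes was made. Vehicle lists of the MR/GR cell overlapped 10 kept, 21 partly kept, 11 lost and 1 new site. Vehicle list 1 of that line alone overlapped 10, 20, 9 and 1 of these.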

How the data were processed

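GR ChIP-seq peak lists of both lines after dexamethasone, 3 per line, were analysed as deposited. The deposited files give the position of each peak (chromosome, start and end, hg19) and no score. Per the submitters' processing notes, the tools were HOMER 4.8.3, Picard 1.115, SAMtools 1.3.1, Bowtie and Trim Galore 0.4, and the settings, the threshold and the depth are not given in the sources used here. Peak width was fixed per list, 354, 366 and 424 bp in the GR cell and 280, 284 and 304 bp in the MR/GR cell (1 peak of GR-cell list 2 differed), so wider GR-cell peaks overlap more easily. List numbers come from the deposited files and not from the labels. The series has a DNA input for each line, and the list names refer to an input. The labels give a dose for the GR-cell input and none for the MR/GR-cell input. Which input served which list is not stated, so a difference between inputs cannot be told apart from one between the lines.

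Sites were merged from peaks that overlap by at least 1 bp. Shares have Wilson 95% intervals. Lists were compared on log2(peaks + 1) by exact permutation tests over 20 arrangements. Loci with at least 3 GR-cell sites were described singly, and per locus the site in most lists was named, the first by coordinate among ties. Named clusters were those with most kept sites and the largest with all sites lost, and named windows those with the highest and lowest ratios. Promoters and sites named for other reasons were chosen after their values were seen. The members, loci and lists were chosen with earlier results of these data known.

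An hg19 genome and annotation were not used here. The chromosomes of the hand-entered loci were those of RefSeq GRCh38.p14 for 49 of 49, and lengths were within 10% for 41. Among the 8 that differed were NR3C1, HSD11B2, CEBPD, PER2, PCK1, TAT and SCNN1B. The values of 1 locus are not reported here singly, and it is part of the counts over loci. Of the 49 loci, 38 matched the promoter table. Software was matplotlib 3.10.9, SciPy 1.17.1, pandas 2.3.3, numpy 2.4.6 and Python 3.11.15. Merging gave the same 43713 sites in bedtools 2.31.1. Tested on simulated data for the site classes, 100% of 20000 sites were recovered and classed as made, with no 2 centres closer than 900 bp. Simulated peaks of a site lay close together, so this outcome was largely set by the simulation. Of 22935 real sites in 3 GR-cell lists, 4775 had centres over 80 bp apart, a spread that the simulation did not include. Alternatives were other rules for holding and merging sites, every peak set to 200 bp around its centre, other flanks, neighbour distances and windows, and each list left out in turn.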

Additional observations from a re-analysis of the deposited data

How the results depend on the processing

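Among 224 alternative values for single loci, 218 kept their direction, but 22 of these moved by over 1.5 times. At the 22 loci where the lists of the lines do not overlap, leaving out 1 list cannot turn the direction. Much of this count was therefore fixed in advance. With 20 kb on each side in place of 50 kb, the difference was -0.14 at DUSP1 and -0.33 at CXCL8 and at IL1B. For the main results, 86 of 121 alternatives kept their direction and stayed within the replicate spread, the 95% interval or, for counts, 1.5 times. Differences in peaks and at chromosome ends were judged by direction alone. Neither overlapped between the lines, so leaving out 1 list could hardly turn their direction. Setting every peak to 200 bp, which removes the difference in width, gave 5406 kept and 337 new sites. The counts of sites depended on how many lists must have a site. With at least 1 list, 9379 sites were kept, 2260 were new and the MR/GR cell held 22.6% of GR-cell sites. With all 3 lists, 3017 were kept, 4862 partly kept and 63 new, and 13.2% were held. Kept with 2 or more neighbours minus kept with none was 10.4 points, and 17.3 with neighbours counted within 5 kb. Windows of 5 Mb gave 190 lower and 150 higher shares, and windows of 20 Mb gave 51 and 40, out of another number of windows.

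With each list left out in turn, the difference in peaks ran from -2.65 to -1.90, kept sites from 3187 to 5324, partly kept from 2731 to 4562, lost from 15602 to 24134 and new from 72 to 500. The share of GR-cell sites held ran from 10.5% to 22.0%, the neighbour difference from 8.67 to 13.3 points, clusters with a kept site from 40.1% to 63.1% and the share held at target loci from 33.7% to 50%. The locus ratio ran from 2.00 to 2.54, lower windows from 112 to 132, higher windows from 91 to 104 and the difference at chromosome ends from -1.23 to -1.06 points. Non-overlap is easier to meet with 1 list fewer, and both window ranges lay above the 111 and 90 of all lists. The kept share at close minus wide GR-cell centres was 23.3 points and ran from 17.1 to 22.7. A site then needed both remaining lists of that line. The lowest kept and new counts came without MR/GR list 2 or 3.

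The sign turned at DDIT4 without MR/GR list 1, where leaving out lists gave -0.34 to 0.080, and at KLF9 with 20 kb (0.057) or 100 kb (0.033) on each side. With 20 kb, the difference was 0 at NFKBIA, PDK4 and SCNN1G. The cause was not tested. No paired analysis was possible because the labels give no basis for pairing: the list numbers are in the names of the deposited lists only, and nothing says that equal numbers share a culture or day. With no depth or scores, binding below the threshold could not be told from its absence.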
